A study of Mus musculus with 6 samples.

Results

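Collagen chains and the proteins that fold, modify, trim and crosslink them were followed in the mouse pre-osteoblast line 2T3 after culture in simulated microgravity and after static culture. Simulated microgravity came from a Random Positioning Machine, which keeps turning the culture so that gravity pulls from no lasting direction. The set held every gene whose single symbol in the platform annotation names a collagen chain, together with 19 listed processing genes. It came to 46 genes, 28 chains and 18 processing genes, each read by 1 probe, among 10500 probes on the array, of which 8983 carried 1 gene symbol. The rule reads symbols, and measured values only to choose among several probes of a symbol, a case that did not arise here. However, it was drawn up with earlier results of these data known. Of the listed genes, Fkbp10 had no probe with that single symbol and was not analysed here, nor were the chains Col3a1, Col6a2 and Col12a1. Both groups, 3 simulated microgravity samples and 3 static samples with 1 array each, grew in Opticells, closed cassettes with gas-permeable walls. The labels name 1 cell line and give neither the exposure time nor whether the samples of a group were separate cultures, so each p-value rests on a spread between arrays that could be technical.

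Collagens are trimers of alpha chains wound into a triple helix. In the endoplasmic reticulum, prolyl and lysyl hydroxylases modify the chains and the chaperone HSP47 (Serpinh1) binds the folded helix. After secretion, proteases such as BMP1 cut off the propeptides, helped by procollagen C-proteinase enhancers (Pcolce, Pcolce2), and lysyl oxidases crosslink the fibrils. Osteoblasts make mainly type I collagen, laid down in fibrils with types III and V, and this matrix is the scaffold that later mineralises.

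The RefSeq promoter windows are printed for the 3 genes that passed the test below, all lower in simulated microgravity (Col6a3, Col11a1 and Pcolce2). Also printed is the window of Col1a2, the alpha 2 chain of type I collagen, which had lower values but did not pass. Each window runs 5′ to 3′ on the gene's strand, from 250 bases before to 50 bases after the annotated start, in build GRCm38.p6. Capitals mark matches, on either strand, to TATAAA (a core promoter element), to CCAAT (bound by the factor NF-Y) or to ACGTG (the core bound by hypoxia-inducible factors). The windows lie at chr1:90843922-90844221 on the minus strand for Col6a3, and on the plus strand at chr3:114030290-114030589 for Col11a1, chr9:95637378-95637677 for Pcolce2 and chr6:4505368-4505667 for Col1a2.
Col6a3: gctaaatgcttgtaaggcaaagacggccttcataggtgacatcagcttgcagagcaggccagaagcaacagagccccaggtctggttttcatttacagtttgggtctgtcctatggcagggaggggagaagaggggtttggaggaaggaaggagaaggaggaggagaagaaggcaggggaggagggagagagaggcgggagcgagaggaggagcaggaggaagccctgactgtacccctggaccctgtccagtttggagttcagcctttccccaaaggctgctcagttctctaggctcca
Col11a1: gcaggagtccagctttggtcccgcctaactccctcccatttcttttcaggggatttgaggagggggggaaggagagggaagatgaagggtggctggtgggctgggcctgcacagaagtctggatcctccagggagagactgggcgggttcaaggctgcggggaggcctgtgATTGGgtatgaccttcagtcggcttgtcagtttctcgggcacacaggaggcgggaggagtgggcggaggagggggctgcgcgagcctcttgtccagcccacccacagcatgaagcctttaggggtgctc
Pcolce2: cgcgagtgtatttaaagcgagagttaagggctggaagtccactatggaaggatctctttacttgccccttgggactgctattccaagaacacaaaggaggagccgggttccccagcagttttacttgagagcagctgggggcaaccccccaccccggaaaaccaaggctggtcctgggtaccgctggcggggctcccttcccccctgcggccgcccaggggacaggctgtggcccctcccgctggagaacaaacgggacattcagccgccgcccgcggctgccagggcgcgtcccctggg
Col1a2: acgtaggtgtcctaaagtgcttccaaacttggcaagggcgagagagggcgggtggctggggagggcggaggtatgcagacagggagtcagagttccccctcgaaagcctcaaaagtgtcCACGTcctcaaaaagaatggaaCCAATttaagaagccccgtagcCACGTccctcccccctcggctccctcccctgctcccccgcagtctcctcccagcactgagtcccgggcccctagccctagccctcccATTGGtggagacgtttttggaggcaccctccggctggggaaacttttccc
The Col6a3 and Pcolce2 windows held 0 matches, Col11a1 held 1 (CCAAT, on the opposite strand) and Col1a2 held 4 (2 CCAAT and 2 ACGTG). The table of windows held 38 windows of 35 of the genes. CCAAT was in 16 of these 38 windows (42.1%) and in 37.4% of all 32851 windows, TATAAA in 6 (15.8%) and 13.6%, and ACGTG in 11 (28.9%) and 19.6%. A match describes letters only, and none of these motifs was shared by the 3 genes that passed.

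Levels below are intensities divided by the array's median, so 1 is the median probe. Levels of different probes are not comparable, and no detection call was used. The arrays microgravity 3 and static 1 departed from their group means together: over 9944 probes their deviations correlated at 0.66. So did microgravity 2 and static 2, at 0.46, and microgravity 1 and static 3, at 0.38, while the remaining pairs across groups correlated negatively. The labels give no pairing or batch, and the limma test treats the arrays as independent. Of 10 osteoblast markers 6 were measured, and their summed level was 37.4 to 47.8 in simulated microgravity and 76.4 to 89.4 in static cells. Such sums are led by the strongest probe, here Postn, which read 35.3 to 45.6 in simulated microgravity and 67.6 to 80.5 in static cells (limma adjusted p = 0.0930). Alpl and Pth1r fell, 4.74-fold and 5.05-fold (limma adjusted p = 0.0295 and 0.0194), while the later markers Ibsp, Phex and Dmp1 stayed at or below 0.289 on every array. Of the 8 measured chondrocyte markers outside the collagens, among them Acan, Comp and Matn3, 0 had a mean above the array median. Their summed level was 1.64 to 1.75 in simulated microgravity and 1.501 to 2.89 in static cells. The 5 measured adipocyte markers summed to 35.8 to 41.4 in simulated microgravity and 42.7 to 50.5 in static cells, with 0 past the threshold. Of these, Lpl read 8.64 to 11.6 in simulated microgravity and 15.98 to 17.5 in static cells (log2 change -0.78, limma adjusted p = 0.109), and Fabp4 24.7 to 27.7 in simulated microgravity and 21.97 to 30.6 in static cells (log2 change 0.03). Pparg was also above the array median, while Adipoq and Cebpa were below it. The 6 skeletal muscle markers summed to 1.17 to 1.38 in simulated microgravity and 1.20 to 1.31 in static cells. The 8 markers of endothelium and epithelium summed to 0.716 to 1.13 in simulated microgravity and 0.765 to 0.992 in static cells. The 4 measured macrophage and blood markers summed to 9.99 to 16.4 in simulated microgravity and 13.9 to 17.5 in static cells. Cd14, at 7.20 to 13.98 in simulated microgravity and 10.6 to 15.3 in static cells, and Lyz2, at 2.09 to 2.52 in simulated microgravity and 2.25 to 3.05 in static cells, were above the array median, while Ptprc and Itgam stayed at or below 0.152. Whether cell state or the mix of cells took part in the differences below was not tested, and in bulk RNA fewer cells of a kind and less RNA per cell cannot be told apart.

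Collagen genes that were bright on these arrays tended to read lower in simulated microgravity, and 3 of them passed the test: the collagen VI chain Col6a3, the collagen XI chain Col11a1 and the procollagen processing enhancer Pcolce2. Of the 44 genes that could be tested, 3 fell and 0 rose (limma, Benjamini-Hochberg adjusted p under 0.05 over 10146 probes), where 0.187% of all probes fell and 0.0887% rose. At an unadjusted p under 0.05, 10 of the 44 were lower and 0 higher, against 5.28% and 5.56% of all probes. In 12 of the 44 the 3 microgravity values all lay below the 3 static values, and in 0 all above, against 7.28% and 7.79% of all probes. All 12 were among the 28 tested genes whose mean exceeded the array median, where the share of probes was 9.47% lower and 11.8% higher. The median log2 change was -0.14 over the 44 genes and 0.05 over all probes. With 1 array left out it ran from -0.27 to -0.14 over the collagen genes tested and from -0.00898 to 0.0804 over all probes. With no array left out, the median among the 28 brighter genes was -0.41, with 24 reading lower. For all 5280 probes above the array median it was 0.05, with 42.3% lower. Leaving out any single array ended all 3 calls, and 0 of all probes passed in any of those fits. In those fits the log2 change ran from -2.43 to -1.87 for Col6a3, from -1.87 to -1.63 for Col11a1 and from -1.56 to -1.35 for Pcolce2. With the replicate number as a block 0 of all probes passed as well. Without the intensity trend 19 of 10146 probes passed, and of this set only Col11a1. In that fit the limma adjusted p was 0.0576 for Col6a3 and 0.0514 for Pcolce2.

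**Figure D1:**
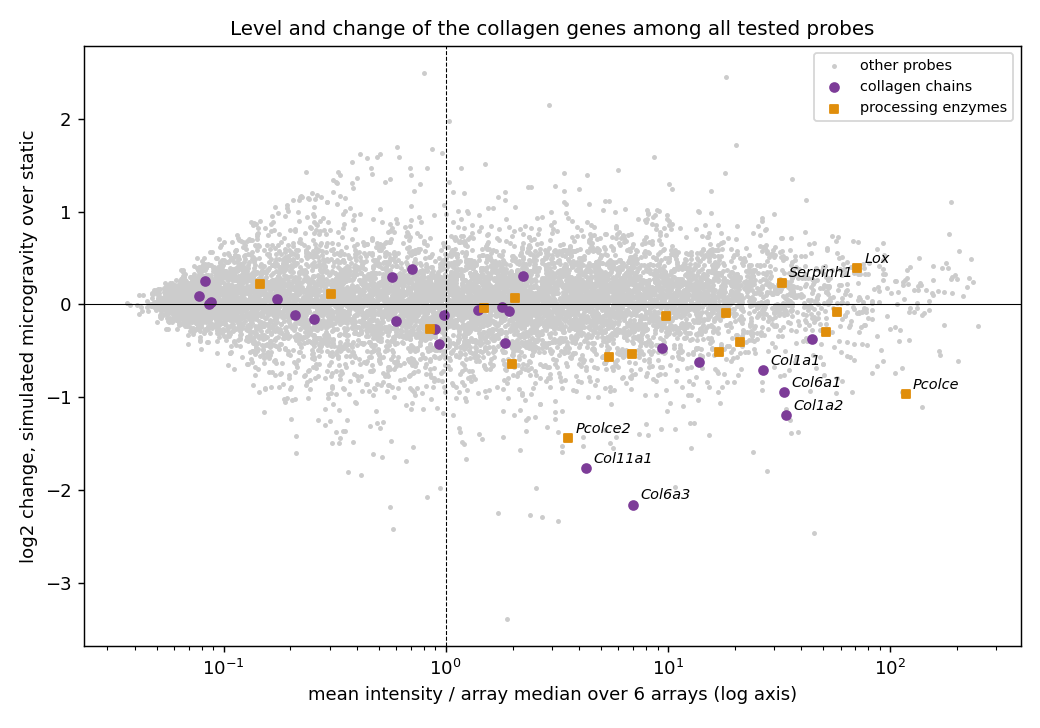
Mean intensity over the 6 arrays, relative to the array median on a log axis, against the log2 change of simulated microgravity over static, for collagen chains (circles), processing enzymes (squares) and all other tested probes (grey). Most of the set right of the dashed line at the array median lies below 0, with Col6a3, Col11a1 and Pcolce2 lowest and Lox and Serpinh1 above 0.

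Collagen VI forms beaded microfilaments around cells, from alpha 1, alpha 2 and alpha 3 chains. Col6a3, the alpha 3 chain, read 2.38, 2.27 and 2.71 on microgravity arrays 1, 2 and 3, and 16.3, 7.55 and 10.6 on static arrays 1, 2 and 3. The groups were far apart, and the static arrays differed more among themselves than the microgravity arrays did. Col6a3 fell 4.47-fold (log2 change -2.16, SE 0.28, limma adjusted p = 0.0498), the largest change of the set, though the adjusted p lay close to the threshold. Col6a1, the alpha 1 chain, read 23.3, 25.98 and 18.9 in simulated microgravity, against 36.5, 50.6 and 44.7 in static cells. These groups did not overlap either, but the log2 change of -0.95 (95% interval -1.40 to -0.49) did not pass over all probes (limma adjusted p = 0.115). Within each array the log2 difference of Col6a1 minus Col6a3 averaged 3.20 ± 0.37 in simulated microgravity and 1.99 ± 0.79 in static cells (SD, n = 3 each). Microgravity 3 at 2.80 was close to static 2 at 2.74. The test of this difference, given below, could not pass with so few arrays. Col26a1, placed with them by its class, had 1.88 ± 0.50 in simulated microgravity and 1.98 ± 0.51 in static cells, a difference within the spread between arrays.

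**Figure D2:**
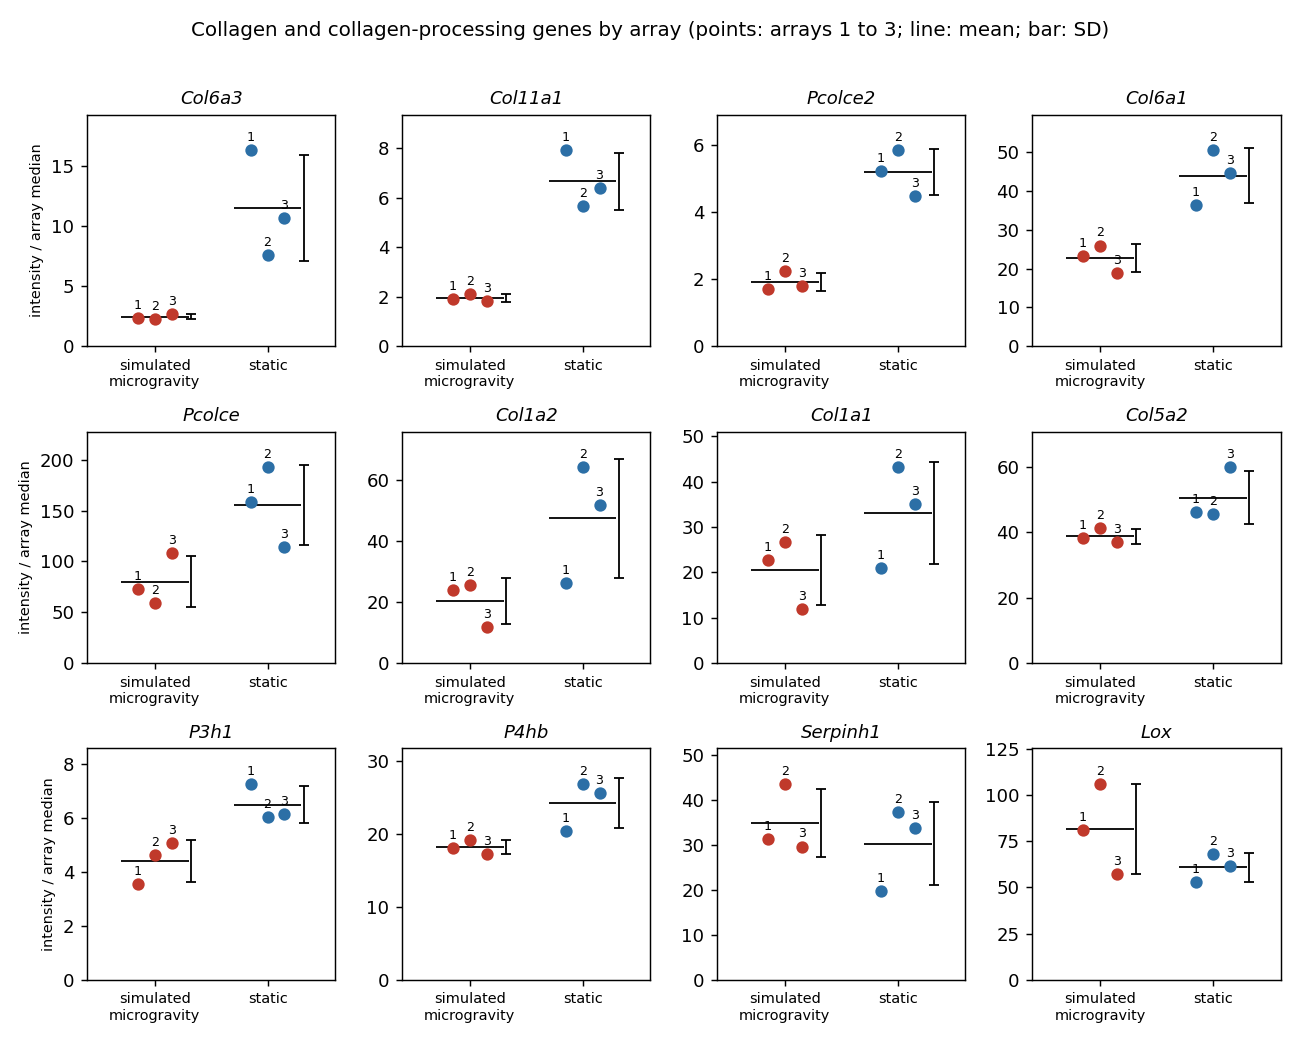
Intensity relative to the array median for 12 genes, with simulated microgravity arrays on the left and static arrays on the right of each panel; points are numbered by array, lines are means and bars SDs. The groups are separate for Col6a3, Col11a1, Pcolce2, Col6a1, Pcolce, Col1a2, Col5a2, P3h1 and P4hb and overlap for Col1a1, Serpinh1 and Lox.

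All 8 fibrillar chains measured had a log2 change below 0, though it was only -0.12 for Col11a2 and -0.11 for Col2a1. Of the 8, 1 passed the threshold, where 0.187% of all probes fell. Their median log2 change was -0.55, against 0.05 over all probes. Collagen XI is a minor fibrillar collagen that helps set fibril diameter, best known from cartilage and also made with collagen V outside it. Its alpha 1 chain Col11a1 read 1.91, 2.11 and 1.81 on microgravity arrays 1, 2 and 3, and 7.91, 5.68 and 6.39 on the static arrays. Every microgravity value was thus well under every static value, with little spread in either group. Col11a1 fell 3.40-fold (log2 change -1.76, SE 0.17, limma adjusted p = 0.0295), the smallest p of the set. The other collagen XI chain, Col11a2, was dim at 0.2002 ± 0.0466 in simulated microgravity and 0.219 ± 0.0614 in static cells (SD, n = 3 each). Col2a1, the main chain of cartilage fibrils, sat at the array median, at 0.957 ± 0.303 in simulated microgravity and 1.01 ± 0.206 in static cells, and its groups overlapped. The 95% interval of the log2 change was -0.79 to 0.56 for Col11a2 and -0.87 to 0.64 for Col2a1, both including 0 and neither reaching the interval of Col11a1 (-2.18 to -1.35). For the dim Col11a2 this cannot be set against Col11a1, since a fall of that size would have met the floor at 0.1.

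Type I collagen, the bulk of bone matrix, is made of alpha 1 and alpha 2 chains. Col1a2 read 23.9, 25.6 and 11.8 on microgravity arrays 1, 2 and 3, and 26.2, 64.4 and 51.9 on static arrays 1, 2 and 3. The groups did not overlap, but static 1 lay just above the microgravity arrays. The log2 change of -1.20 had a 95% interval of -2.20 to -0.19 and did not pass over all probes (limma adjusted p = 0.363). Col1a1 read 22.8, 26.8 and 11.9 in simulated microgravity and 20.9, 43.2 and 35.1 in static cells, with static 1 below 2 of the microgravity arrays. Its log2 change of -0.71 was -1.01 without static 1 and -0.36 without microgravity 3, and -0.66 without both. Col1a2 gave -1.58, -0.84 and -1.22 in the same settings, and leaving out both arrays was chosen after seeing the data. Both chains thus had their lowest value of each group on the same arrays, microgravity 3 and static 1.

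Collagen V is a regulatory component inside type I fibrils, and its chains had smaller differences. Col5a3 read 7.41, 7.98 and 8.23 in simulated microgravity, against 12.9, 9.31 and 10.8 in static cells, with no overlap (log2 change -0.47, 95% interval -0.84 to -0.09, limma adjusted p = 0.332). Col5a2 also showed no overlap, at 38.2, 41.3 and 36.9 in simulated microgravity and 46.2, 45.6 and 60.1 in static cells (log2 change -0.37, limma adjusted p = 0.498). Col5a1 read 11.7, 13.3 and 7.61 in simulated microgravity and 12.1, 18.03 and 19.8 in static cells. Its groups overlapped through static 1, and its log2 change was -0.62 (95% interval -1.28 to 0.03).

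To see whether chains of 1 collagen moved by the same amount, the log2 difference between chains of a type was taken within each array, which cancels what both probes share on that array. This gave 5 pairs, with chains above the array median, chosen after the values were seen. Col1a1 minus Col1a2 was -0.07, 0.06 and 0.01 on microgravity arrays 1, 2 and 3, against -0.33, -0.58 and -0.57 on the static arrays. Every microgravity value was higher, by 0.49 on average on the log2 scale. With 3 arrays against 3 the exact 2-sided permutation test cannot give less than 0.1, which both this pair and the collagen VI pair reached (exact permutation p = 0.1, adjusted over the 5 pairs 0.25). The 3 collagen V pairs overlapped between groups, with differences of -0.25, -0.15 and 0.10 (exact permutation p = 0.4 to 0.8). After adjustment 0 of the 5 pairs passed.

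The non-fibrillar chains were mostly dim and none passed (0 of 15 tested outside collagen VI and XXVI, and 0 at an unadjusted p under 0.05). Among the basement membrane chains, which form the collagen IV network, Col4a2 read 2.64, 3.76 and 1.10 in simulated microgravity and 0.961, 2.36 and 2.56 in static cells, with wide overlap (log2 change 0.31, 95% interval -1.01 to 1.62). Again microgravity 3 and static 1 were the low arrays of their groups. Its partner chain Col4a1 had a value on 1 array of each group, 3.40 on microgravity 2 and 2.89 on static 2, and was not tested. Col4a4 and Col4a5 read 0.476 to 1.29 over all arrays, and Col4a3 and Col4a6 stayed at or below 0.170.

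FACIT collagens sit on the surface of other fibrils. Of these, Col9a2 had 1.36 ± 0.291 in simulated microgravity and 1.42 ± 0.284 in static cells, Col9a1 had 0.771 ± 0.204 in simulated microgravity and 0.645 ± 0.340 in static cells, and Col16a1 had 0.766 ± 0.234 in simulated microgravity and 1.09 ± 0.572 in static cells (SD, n = 3 each). These differences were all within the spread of the arrays. Col19a1 was at or under 0.1 of the median on every array and was not tested. The network chain Col8a1 averaged 1.497 ± 0.390 in simulated microgravity and 2.20 ± 1.40 in static cells, a mean set by static 2 at 3.81. Of the transmembrane chains, Col17a1 was bright enough to read steadily, at 1.78 ± 0.307 in simulated microgravity and 1.81 ± 0.250 in static cells, with a 95% interval of the log2 change from -0.51 to 0.47. Col13a1, Col7a1, Col15a1 and Col18a1 stayed at or below 0.360 on every array. Col23a1 was fitted on 2 arrays per group, since it had no value on microgravity 2 or static 2, and read 0.495 to 0.652.

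**Figure D3:**
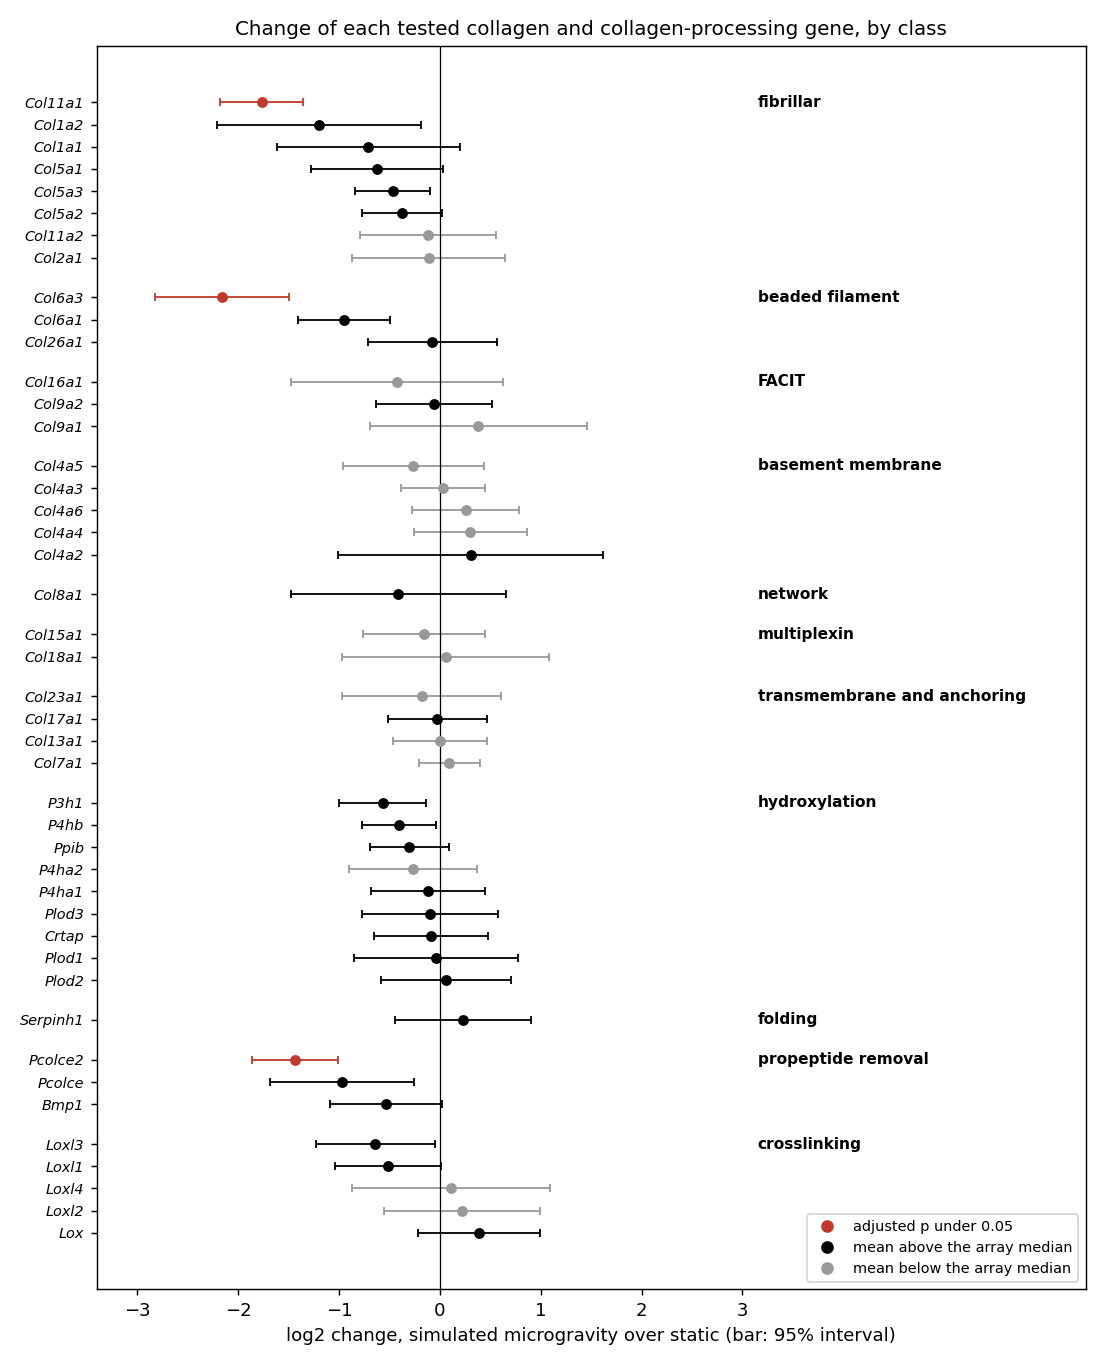
Log2 change of simulated microgravity over static for the 44 tested genes, by class, with 95% intervals from limma; red marks an adjusted p under 0.05, black a mean above the array median and grey a mean below it. Intervals lie wholly below 0 for 10 genes, among them 3 fibrillar chains and both measured chains of collagen VI, and wholly above 0 for none.

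The genes of propeptide removal were all 3 lower in simulated microgravity, and Pcolce2 passed. Pcolce2 binds procollagen and raises the activity of the proteases that trim it. It read 1.72, 2.24 and 1.80 on microgravity arrays 1, 2 and 3, and 5.24, 5.86 and 4.49 on the static arrays. Each static value was at least 4.49 while no microgravity value exceeded 2.24, a 2.71-fold fall (log2 change -1.44, SE 0.18, limma adjusted p = 0.0464). Pcolce, the related enhancer that osteoblasts also make, read 72.5, 59.6 and 109 in simulated microgravity and 158, 193 and 115 in static cells. The groups just failed to touch, and the log2 change of -0.97 (95% interval -1.68 to -0.26) did not pass (limma adjusted p = 0.292). Bmp1, the protease itself, read 5.74, 5.83 and 5.15 in simulated microgravity and 5.63, 9.56 and 9.66 in static cells. Static 1 fell among the microgravity arrays, and the log2 change was -0.53 (95% interval -1.09 to 0.02).

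Among the 9 hydroxylation genes 0 passed, 8 had lower values and the median log2 change was -0.12. P3h1, which hydroxylates a single proline of the type I alpha 1 chain in a complex with Crtap and Ppib, differed the most. It read 3.54, 4.60 and 5.05 in simulated microgravity, against 7.26, 6.03 and 6.13 in static cells, without overlap (log2 change -0.57, 95% interval -0.99 to -0.14, limma adjusted p = 0.301). Ppib, a prolyl isomerase, had 46.2 ± 3.17 in simulated microgravity and 57.2 ± 7.91 in static cells, and Crtap had 56.2 ± 13.6 in simulated microgravity and 58.9 ± 9.60 in static cells (SD, n = 3 each). The 3 subunits of the complex thus ranged from a log2 change of -0.57 for P3h1 through -0.30 for Ppib to -0.08 for Crtap.

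The prolyl 4-hydroxylases, which make the hydroxyproline that keeps the helix stable, are built from an alpha subunit and the beta subunit P4hb, which is also protein disulfide isomerase. P4hb read 18.1, 19.2 and 17.2 in simulated microgravity and 20.3, 26.9 and 25.5 in static cells, without overlap (log2 change -0.41, limma adjusted p = 0.400). Its partners P4ha1, at 9.48 ± 2.88 in simulated microgravity and 10.1 ± 1.61 in static cells, and P4ha2, at 0.778 ± 0.187 in simulated microgravity and 0.920 ± 0.149 in static cells, overlapped between the groups. The lysyl hydroxylases, which prepare lysines for crosslinks, overlapped as well. Plod1 had 1.46 ± 0.436 in simulated microgravity and 1.502 ± 0.493 in static cells, Plod2 had 2.11 ± 0.533 in simulated microgravity and 2.00 ± 0.436 in static cells, and Plod3 had 17.5 ± 4.30 in simulated microgravity and 18.97 ± 5.80 in static cells (SD, n = 3 each). Their 95% intervals of the log2 change lay between -0.85 and 0.78, all including 0.

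HSP47 and the main lysyl oxidase did not read lower with the chains. Serpinh1 read 31.2, 43.5 and 29.6 in simulated microgravity, against 19.8, 37.2 and 33.8 in static cells (log2 change 0.23, 95% interval -0.44 to 0.91). Without static 1 the sign turned, to -0.05. Lox, the oxidase that starts crosslinks in collagen and elastin, read 81.3, 106 and 57.6 in simulated microgravity and 52.9, 68.2 and 61.4 in static cells. Microgravity 3 fell within the static values, and the log2 change of 0.39 (95% interval -0.22 to 0.99) did not pass (limma adjusted p = 0.750). It was 0.18 without microgravity 2 and 0.62 without microgravity 3. Its relatives went the other way where they were bright. Loxl3 read 1.28, 1.96 and 1.41 in simulated microgravity and 2.19, 3.03 and 2.01 in static cells, without overlap (log2 change -0.64, 95% interval -1.23 to -0.05, limma adjusted p = 0.411). Loxl1, which acts mainly on elastin, read 13.0, 11.4 and 17.9 in simulated microgravity and 24.4, 17.3 and 18.2 in static cells (log2 change -0.51, 95% interval -1.04 to 0.02). Loxl2 and Loxl4 were dim, at 0.0928 to 0.438 over all arrays.

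Among other genes of the collagen pathway 0 passed. Of 27 further genes of collagen modification and secretion, 14 were measured, 0 passed, 5 were lower and 1 higher at an unadjusted p under 0.05, against 5.28% and 5.56% of all probes, and the median log2 change was -0.35, against 0.05 over all probes. P3h3, which works with lysyl hydroxylase 1, had 4.70 ± 0.316 in simulated microgravity and 7.12 ± 0.297 in static cells (limma adjusted p = 0.133), without overlap. Fkbp7, a prolyl isomerase of the endoplasmic reticulum, had 6.71 ± 1.74 in simulated microgravity and 13.8 ± 2.59 in static cells (limma adjusted p = 0.164). Its relative Fkbp9 had 23.8 ± 6.39 in simulated microgravity and 40.0 ± 4.33 in static cells (limma adjusted p = 0.229). Sparc, a matrix protein that binds collagen, had 137 ± 19.7 in simulated microgravity and 201 ± 39.3 in static cells (limma adjusted p = 0.457). Calr, the chaperone calreticulin, had 7.11 ± 1.101 in simulated microgravity and 9.47 ± 1.24 in static cells, with overlap (limma adjusted p = 0.449). The gene higher at that level was Hspa5 (BiP), the general chaperone of that compartment, at 72.8, 77.1 and 54.2 in simulated microgravity and 29.8, 45.7 and 48.2 in static cells (limma adjusted p = 0.322). Of 15 genes for collagen receptors, uptake and breakdown, 11 were measured, 0 passed and the median log2 change was 0.11. At an unadjusted p under 0.05, 0 were lower and 1 was higher, where 5.56% of all probes were higher: the collagen-degrading protease Ctsk, at 5.79 ± 0.437 in simulated microgravity and 3.49 ± 0.634 in static cells (limma adjusted p = 0.166). The collagenase Mmp13 was dim at 0.0923 to 0.139, and the collagen receptor subunit Itgb1 had 13.4 ± 2.18 in simulated microgravity and 12.5 ± 2.75 in static cells. Of the 11 genes, 4 had lower values, all with overlap, and the others had higher values. The 4 were the receptors Ddr1 and Ddr2 and the proteases Mmp2 and Mmp14, with log2 changes of -0.54, -0.05, -0.39 and -0.39.

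Many of the brighter genes shared their low arrays. Of the 28 tested genes above the array median, 13 (46.4%) had their lowest value of each group on microgravity 3 and static 1 together, against 23.9% of the 5159 probes above the median with 6 values. They were both type I chains, Col5a1, Col6a1, Col4a2, Col8a1, Bmp1, P4hb, Serpinh1, Lox and the 3 lysyl hydroxylases, a mix of genes with lower and higher group means. Over the 28 genes the median log2 deviation from the group mean was -0.11 on microgravity 3 and -0.14 on static 1. For the 6 brighter fibrillar chains it was -0.29 on microgravity 3 and -0.27 on static 1. Of these 6, 5 were lowest on microgravity 3, but static 1 and static 2 were each lowest for 3. All probes above the median had 0.07 on microgravity 3 and 0.02 on static 1. Scaling each array to its median keeps such a value near 0 over all probes. Over these probes the deviations of microgravity 3 and static 1 still correlated at 0.78. Ribosomal protein genes (52 probes) went the opposite way to the fibrillar chains, at a median of 0.32 on microgravity 3 and 0.20 on static 1. The genes that passed did not share this pattern: Col6a3 was highest of its group on both arrays, Pcolce2 was lowest on neither, and Col11a1 was lowest on microgravity 3 and highest on static 1. With both arrays left out, Col6a3, Col11a1 and Pcolce2 had log2 changes of -1.95, -1.58 and -1.39, and 22 of 43 genes had groups that did not overlap. Of these 17 were lower and 5 higher, where 14.2% of all probes were lower and 17.3% higher without overlap in the same 4 arrays. What set these arrays apart was not tested.

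**Figure D4:**
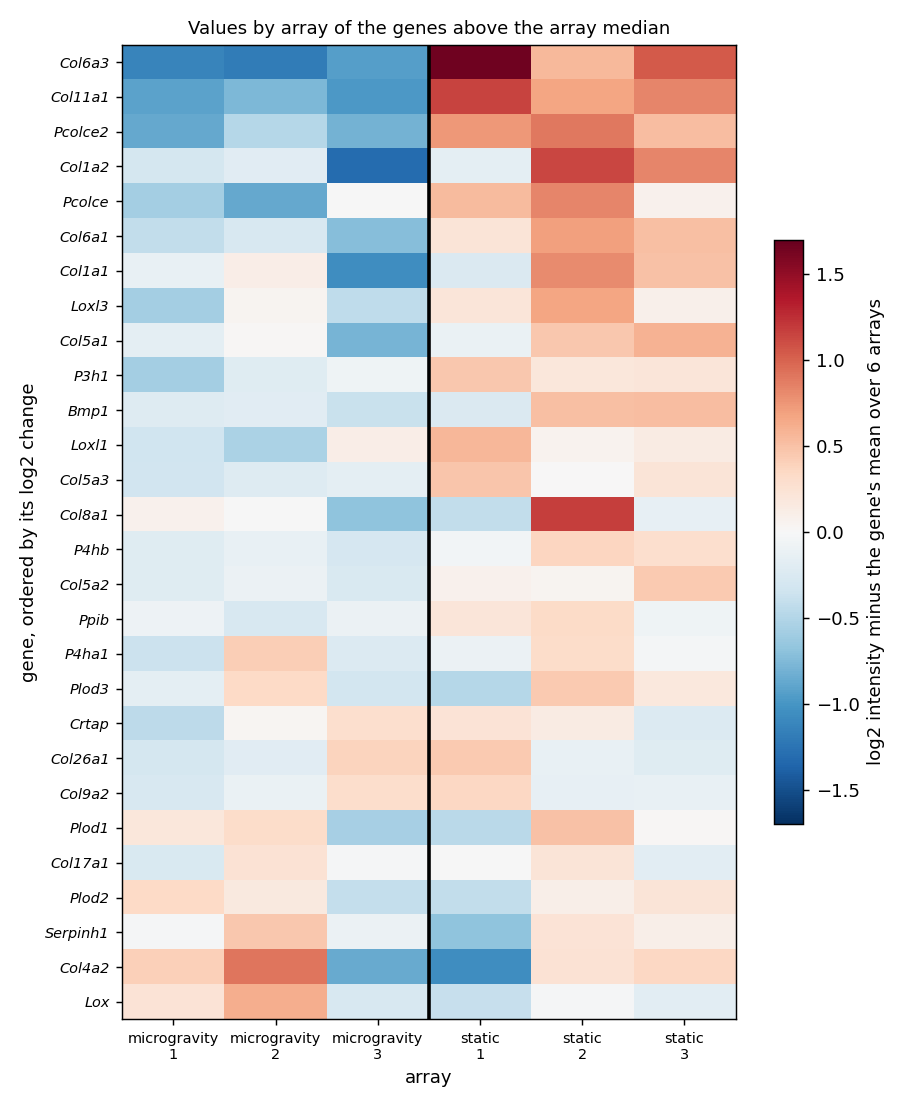
Log2 intensity minus the gene's mean over the 6 arrays, for the 28 genes with a mean above the array median, ordered from the most lowered at the top; columns are microgravity arrays 1 to 3, then static arrays 1 to 3. Col6a3, Col11a1 and Pcolce2 are low on all microgravity arrays and high on all static arrays, while Col1a1, Col1a2, Col5a1 and Col4a2 have the lowest value of each group on microgravity 3 and static 1.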

How the data were processed

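Expression was measured with 1 array per sample. The authors deposited linear intensity values, and the sources used here do not give how they were made; the 6 medians lie between 0.908 and 0.927. Intensities were rescaled to a median of 1 on each array, raised to 0.1 where lower, and taken to log2. Testing needed a value over this floor on some array and at least 2 values per group, which kept 10146 of 10500 probes, with 10337 to 10432 values per array. Groups were compared over all probes with limma (version 3.58.1, R 4.3.3) through lmFit and eBayes (intensity trend, 2-sided), with Benjamini-Hochberg adjustment and a threshold of 0.05; the script was tested on simulated data. Fold changes put simulated microgravity over static and are too small where a dim probe meets the floor. The number of arrays limits the precision.

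Symbols came from GEO's platform annotation, and 8975 of 8983 matched a RefSeq gene table by gene ID, with 0 changed. The promoter windows are RefSeq's. No genome build was stated for the probes. The genes, lists, naming rule and tests were chosen with earlier results of these data known. Among the collagen set, values per array were given for genes past the threshold, for genes at an unadjusted p under 0.05 whose brighter group exceeded the array median, and for a set of main chains and enzymes, some of which are given as mean ± SD. Col4a2 was added after its values were seen. Genes outside the set are given as ranges, mean ± SD or changes, and Hspa5 is given per array. Alternatives changed the normalization, floor, variance model, array weights, dim-probe filter, block and arrays used.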

Additional observations from a re-analysis of the deposited data

How the results depend on the processing

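The 3 arrays per group and the dim probes limit what could be seen. The number of probes past the threshold, 28, was 54 with quantile and 57 with cyclic loess normalization, 53 with a floor at 0.05 of the median, 59 with no floor, 115 with array weights, 56 and 55 with the dimmest 25% and 50% of probes left out, and 121 at an adjusted p under 0.1. It was 19 with eBayes without trend, 29 with robust eBayes and 40 with a floor at 0.2 of the median. The replicate block gave 0 probes, and leaving out any 1 array gave 0 to 0. The number was also 0 with static 1 and microgravity 3, or static 2 and microgravity 2, left out. Collagen genes past the threshold, all lower, were 3, but 1 (Col11a1) with eBayes without trend, 0 with the replicate block (adjusted p = 0.245 for each), 0 to 0 with 1 array left out and 0 with either pair of arrays left out; they were the same 3 genes in the other settings. Over all settings the limma adjusted p ran from 0.00724 to 0.325 for Col11a1, 0.0135 to 0.325 for Col6a3 and 0.0155 to 0.416 for Pcolce2. Fewer arrays or fewer degrees of freedom are part of these alternatives by construction. The replicate numbers were not taken as pairs: deviations of same-numbered arrays correlated at -0.21, 0.46 and -0.18, and 1 of the 3 numbers paired best with itself.

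The median log2 change of the collagen genes, -0.14, was below 0 in every setting run, from -0.27 to -0.14 with 1 array left out, -0.26 and -0.41 with the dimmest 25% and 50% left out and -0.22 with a floor at 0.2. Genes with separate groups numbered 12, against 7.28% of all probes lower and 7.79% higher, and 12 to 18 with 1 array left out. Without static 1 they numbered 18 (16 lower and 2 higher), against 10.3% of all probes lower and 11.7% higher. Without microgravity 3 they numbered 16 (13 lower and 3 higher), against 11.1% and 13.1%. They numbered 16, all lower, without static 2 and microgravity 2 (17.2% of all probes lower and 19.3% higher). Without static 1 and microgravity 3 they numbered 22 (14.2% of all probes lower and 17.3% higher). Fewer arrays separate more easily, for all probes as well. Of 26 named genes, 18 kept their sign in every setting that measured them. With 1 array left out, the log2 change ranged from -0.31 to 0.18 for Col2a1, -0.25 to 0.11 for Crtap, -0.0604 to 0.47 for Loxl2, -0.36 to 0.0329 for P4ha1, -0.28 to 0.24 for Plod1, -0.13 to 0.28 for Plod2, -0.36 to 0.10 for Plod3 and -0.0495 to 0.41 for Serpinh1. Plod1 was 0.0871 with array weights and 0.0374 without static 2 and microgravity 2, and Col2a1 was 0.00719 without static 1 and microgravity 3. The cause was not tested. Each gene had 1 probe, so averaging probes changed nothing.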
